A study of Mus musculus with 9 samples.

Results

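Transcripts of the inflammasome, pyroptosis and necroptosis machinery were followed in mature megakaryocytes (mMKs), the bone marrow cells that shed platelets, before and after ionizing radiation (IR). The 10 genes, chosen by name for their roles, are the sensors Nlrp3 and Aim2, the adaptor Pycard, the proteases Casp1 and Casp4, the pore former Gsdmd, the cytokine Il1b, and the necroptosis genes Zbp1, Ripk3 and Mlkl. All 10 were found on the arrays, on 16 of 56605 probes, and all 10 are among the 29410 genes tested.

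Inflammasomes are protein platforms that form when a sensor meets a danger signal; the adaptor ASC, encoded by Pycard, then gathers and activates caspase-1. Active inflammatory caspases cut gasdermin D, whose fragment opens pores in the plasma membrane in the death called pyroptosis, while caspase-1 also matures interleukin 1β, a cytokine that platelets and their precursors can carry and that stimulates blood formation in the marrow. Necroptosis is a separate lytic death in which the kinase RIPK3, activated by ZBP1 or by death receptors, phosphorylates MLKL, which then breaches the membrane.

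The mMKs came from the bone marrow of male mice by positive selection for CD41 and then CD42d, surface proteins of the lineage. Controls (Ctrl) were sham-irradiated. The irradiated mice received 5 Gy of γ-rays over the whole body and were sampled at 1 or 3 days post irradiation (dpi). Each of the 3 groups has 3 arrays, and the array labels give neither strain nor age, nor whether animals were pooled. RNA was labelled with Cy3 and read on 1-colour Agilent arrays, on which 69.1% to 81.8% of probes were well above background. The number of arrays, 3 in each group, limits the precision of every value. Ctrl replicate 1 sat alone on slide 1, whereas the other 8 arrays shared slide 2.

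A level is the log2 signal of a probe after subtraction of its own array's 75th percentile, so that 0 marks that percentile. Signals of different probes are used together only to pick the brightest probe or gene and to sum marker lists, and no other comparison between genes' levels is made. The log2 value of that percentile before subtraction was 10.03 to 10.66 in Ctrl, 9.33 to 9.45 at 1 dpi and 10.37 to 10.55 at 3 dpi. Where a gene has several probes, the brightest stands for it. To be called, a gene needed a change of 2-fold or more and an adjusted p, over all genes, under 0.05. Groups without overlap are common on these arrays. Of all genes tested, 67.5% had none at 1 dpi against Ctrl, 47% at 3 dpi against Ctrl and 65.5% between the times.

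The label of the cells was compared with 14 megakaryocyte markers. All 14 were well above background on all 9 arrays, with Pf4, the platelet chemokine, the brightest. Their summed level, in multiples of each array's 75th percentile, was 117.0 to 131.8 in Ctrl, 118.4 to 131.6 at 1 dpi and 135.9 to 138.6 at 3 dpi. In limma 0 of the 14 were called in any of the 3 comparisons, while an unadjusted p under 0.05 was reached at 1 dpi by 4 with higher and 4 with lower levels, at 3 dpi by 6 and 0, and between the times by 8 and 1. Markers of other blood and marrow cells were also present, and their values stand beside the members' results.

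Nlrp3 encodes the sensor that responds to potassium loss and other signs of cell damage. Its only probe, A_52_P650540, lies at chr11:59378554-59378613 (mm9). Nlrp3 lay at -3.07, -2.96 and -2.98 on the Ctrl arrays, at -0.81, -0.91 and -1.23 at 1 dpi, and at -2.25, -2.08 and -2.13 at 3 dpi. The 1 dpi arrays were the highest, the 3 dpi arrays were intermediate and the Ctrl arrays were the lowest, with no overlap between any pair of groups. Aim2 encodes a sensor of double-stranded DNA in the cytosol, known for a part in cell death in bone marrow after irradiation. On its brighter probe, A_66_P134497 (chr1:175385660-175385719), Aim2 lay at 0.09, 0.02 and -0.01 in Ctrl, at 0.68, 0.58 and 0.53 at 1 dpi, and at 0.61, -0.21 and -0.23 at 3 dpi. The 1 dpi arrays were above Ctrl, whereas the 3 dpi arrays overlapped both other groups because replicate 1 lay far above the other 2.

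Pycard, the adaptor that links sensors to caspase-1, lay on its brighter probe at 3.17, 3.03 and 3.01 in Ctrl, at 3.47, 3.44 and 3.44 at 1 dpi, and at 3.57, 3.49 and 3.49 at 3 dpi (A_51_P438821, chr7:135136241-135136300). Both irradiated groups were above Ctrl without overlap, and the highest 1 dpi array, at 3.47, lay just under the lowest 3 dpi array, at 3.49. Casp1, the protease of the canonical inflammasome, lay at 2.87, 2.73 and 2.80 in Ctrl, at 3.18, 3.30 and 3.24 at 1 dpi, and at 3.15, 3.13 and 3.11 at 3 dpi (A_55_P1990944, chr9:5307206-5307265). Its order was Ctrl, 3 dpi, 1 dpi, and the 3 dpi arrays came close to the lowest 1 dpi array. Casp4, which encodes the protease that binds lipopolysaccharide in the cytosol and is also called caspase-11, lay at 2.14, 2.22 and 2.20 in Ctrl, at 3.03, 3.05 and 3.00 at 1 dpi, and at 3.04, 2.93 and 2.99 at 3 dpi (A_55_P2091461, chr9:5336658-5336717). The irradiated arrays were all above Ctrl and the 2 irradiated groups overlapped.

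Gsdmd, the pore former of pyroptosis, lay at 2.48, 2.33 and 2.30 in Ctrl, at 2.73, 2.66 and 2.67 at 1 dpi, and at 2.47, 2.33 and 2.30 at 3 dpi (A_51_P172231, chr15:75697536-75697595). The 1 dpi arrays stood above both other groups, and those at 3 dpi covered nearly the same range as Ctrl. Il1b, which encodes the precursor that caspase-1 matures, lay at 3.15, 3.10 and 3.16 in Ctrl, at 4.60, 4.58 and 4.55 at 1 dpi, and at 4.15, 4.05 and 4.05 at 3 dpi (A_51_P212782, chr2:129190347-129190406). Il1b was highest at 1 dpi, intermediate at 3 dpi and lowest in Ctrl, and the groups did not overlap.

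Among the necroptosis genes, Zbp1 encodes a sensor of nucleic acids in the Z form and is inducible by interferon. Zbp1 lay at 0.38, 0.16 and 0.04 in Ctrl, at 2.78, 2.73 and 2.69 at 1 dpi, and at 1.62, 1.5 and 1.46 at 3 dpi (A_55_P1994042, chr2:173039307-173039366). The order was again Ctrl, 3 dpi, 1 dpi, with no overlap. Ripk3, the kinase downstream, lay at 2.74, 2.58 and 2.58 in Ctrl, at 2.73, 2.69 and 2.70 at 1 dpi, and at 2.59, 2.58 and 2.52 at 3 dpi (A_51_P491987, chr14:56403949-56404008). Ctrl replicate 1 was the highest Ripk3 array, and both irradiated groups overlapped Ctrl. Mlkl, the membrane effector, lay at 0.75, 1.00 and 0.98 in Ctrl, at 1.25, 1.24 and 1.28 at 1 dpi, and at 1.27, 1.25 and 1.29 at 3 dpi (A_51_P440535, chr8:113835897-113835956). All irradiated arrays were above Ctrl, and 1 and 3 dpi overlapped.

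**Figure D1:**
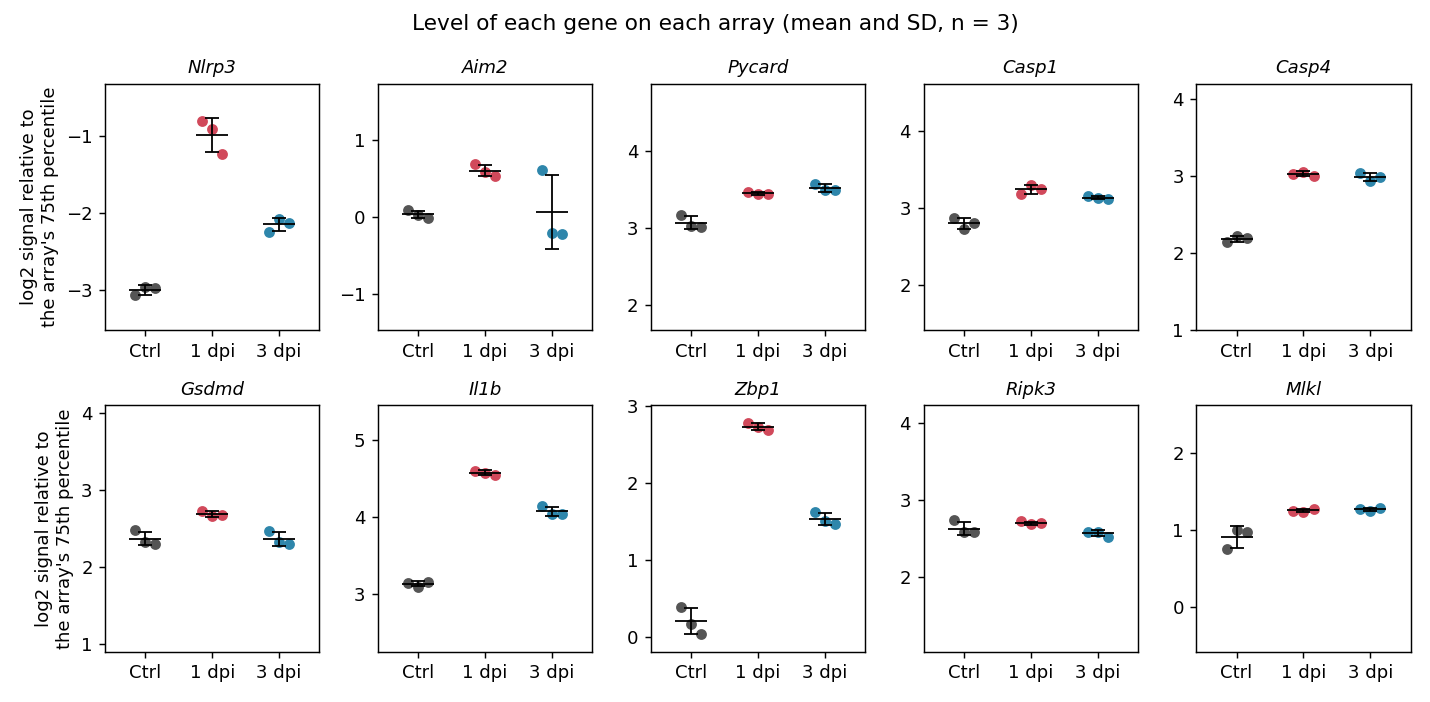
Level of each of the 10 genes (y axis, log2 signal relative to the array's 75th percentile) in Ctrl, 1 dpi and 3 dpi, with a point for each array and bars for the mean and SD of 3 arrays. Nlrp3, Il1b and Zbp1 are highest at 1 dpi and intermediate at 3 dpi, while Ripk3 overlaps between Ctrl and both irradiated groups.

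At 1 dpi against Ctrl, the question was which steps of these death pathways had altered transcripts a day after IR. A damage sensor, the inflammasome cytokine and the nucleic acid sensor of necroptosis rose: Zbp1 was 5.81-fold, Nlrp3 4.05-fold and Il1b 2.72-fold higher than in Ctrl. The adaptor, the caspases, the pore former and the kinase and effector of necroptosis did not reach a 2-fold change. Thus 3 of 10 members were called higher, against 12.3% of all genes tested, and 0 of 10 were called lower in limma, against 2.87% of all genes. At an unadjusted p under 0.05 in limma, 9 members were higher (39.3% of all genes) and 0 lower (22.8%). The test named in the study's methods gave the same 9 (31.2% of all genes) and 0 (22.1%). Arrays at 1 dpi did not overlap Ctrl for 9 of 10 members, beside 67.5% of all genes.

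The log2 fold change of Zbp1 was 2.54 (SE 0.09, 95% interval 2.32 to 2.76, n = 3 arrays a group, adjusted p = 1.5e-06), with 3 of 3 arrays above every Ctrl array. That of Nlrp3 was 2.02 (SE 0.11, 1.75 to 2.28, adjusted p = 9.0e-06), and that of Il1b was 1.44 (SE 0.06, 1.31 to 1.58, adjusted p = 1.8e-06), each again higher on 3 of 3 arrays. Among the members not called, Casp4 came nearest, at 1.79-fold and a log2 fold change of 0.84 (SE 0.06, adjusted p = 2.1e-05). Casp1, at 0.44 (SE 0.06, adjusted p = 7.9e-04), and Pycard, at 0.38 (SE 0.06, adjusted p = 0.0019), passed the adjusted p but not the minimum fold. The same held for Mlkl at 0.35 (SE 0.08, adjusted p = 0.0063) and Gsdmd at 0.32 (SE 0.08, adjusted p = 0.0088). Aim2 had an estimate of 0.57 (SE 0.21, 0.08 to 1.06) that just missed the threshold (adjusted p = 0.051), and Ripk3 had 0.07 (-0.08 to 0.22, adjusted p = 0.37).

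The median log2 fold change of the 10 members at 1 dpi was 0.50, beside 0.25 over all genes tested. Because the median of all genes itself moved, the changes relative to it are smaller: 2.29 for Zbp1, 1.77 for Nlrp3, 1.20 for Il1b, 0.60 for Casp4 and 0.07 for Gsdmd. Relative to that median 9 of 10 members were above 0, with Ripk3 at -0.18. All 10 estimates were above 0 before this step, beside 63.7% of all genes, but scaling to each array's median put Ripk3 at -0.24 and Gsdmd at 0. With that scaling Casp1 was at 0.12 (adjusted p = 0.49), Pycard at 0.07 (adjusted p = 0.72) and Mlkl at 0.03 (adjusted p = 0.80), so that these and Gsdmd (adjusted p = 0.99) no longer passed the adjusted p, whereas Casp4 did, at 0.53 (adjusted p = 0.0040). Aim2 was then at 0.25 (adjusted p = 0.37). Over all alternatives on its brighter probe the adjusted p of Aim2 ran from 4.8e-04, without 3 dpi replicate 1, to 0.37, and with the mean over probes its value was 0.02 (adjusted p = 0.88). The same 3 genes were called under both other scalings, with Zbp1 at 2.22, Nlrp3 at 1.70 and Il1b at 1.13 after scaling to the array median. Across all genes 3623 were called higher and 845 lower, a split that depends on scaling: it was 1941 and 1512 after quantile normalization, and 1993 and 2087 after scaling to the array median. With slide as a block, which equals leaving out Ctrl replicate 1, the values within slide 2 were 2.63 for Zbp1, 1.98 for Nlrp3 and 1.45 for Il1b.

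At 3 dpi against Ctrl, Zbp1 was still higher, whereas the other members were not called. Zbp1 was 2.52-fold above Ctrl, with a log2 fold change of 1.33 (SE 0.09, 1.11 to 1.55, adjusted p = 3.1e-05) and 3 of 3 arrays above every Ctrl array. So 1 of 10 members was called higher, against 6.98% of all genes tested, and 0 of 10 were called lower in limma, against 1.82%. At an unadjusted p under 0.05 in limma, 7 members were higher (22.7% of all genes) and 0 lower (18.9%), as with the test of the study's methods (18.5% and 17.2% of all genes). Arrays at 3 dpi did not overlap Ctrl for 7 of 10 members, beside 47% of all genes.

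Il1b and Nlrp3 lay just under the 2-fold minimum at 3 dpi. Il1b was 1.93-fold above Ctrl at a log2 fold change of 0.95 (SE 0.06, 0.82 to 1.08, adjusted p = 1.2e-05). It was at 0.70 with the mean over its probes (adjusted p = 2.9e-04) and at 0.25 with the deposited values (adjusted p = 0.20), which take its dimmest probe. Nlrp3 was at 1.80-fold and 0.85 (SE 0.11, adjusted p = 9.2e-04), and Casp4 at 1.74-fold and 0.80 (SE 0.06, adjusted p = 2.9e-05). Lower still were Pycard at 0.45 (adjusted p = 0.0013), Mlkl at 0.36 (adjusted p = 0.0088) and Casp1 at 0.33 (adjusted p = 0.0048). The remaining 3 members had intervals that span 0, namely Aim2 at 0.03 (-0.46 to 0.52), Gsdmd at -0.01 (-0.18 to 0.17) and Ripk3 at -0.07 (-0.22 to 0.08).

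Without replicate 1 of 3 dpi, the Aim2 estimate turned to -0.25 with an adjusted p of 0.036, so its value rests on that array. The second Pycard probe gave -0.15 at 3 dpi, where the brighter one gave 0.45. The median of the 10 members at 3 dpi was 0.40 beside 0.11 over all genes, and 7 of 10 members were above the all-gene median. Relative to that median Zbp1 was at 1.22, Il1b at 0.84, Nlrp3 at 0.74 and Casp4 at 0.69. Estimates above 0 numbered 8 of 10, beside 61.2% of all genes, but after scaling to the array median Aim2 was at -0.10. With slide as a block Gsdmd was at 0.05. After scaling to the array median, Pycard at 0.32 (adjusted p = 0.13), Mlkl at 0.23 (adjusted p = 0.11) and Casp1 at 0.21 (adjusted p = 0.32) no longer passed the adjusted p. Within slide 2 Zbp1 was at 1.42. The comparisons at 1 and 3 dpi share their Ctrl arrays, so they are not independent of each other.

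**Figure D2:**
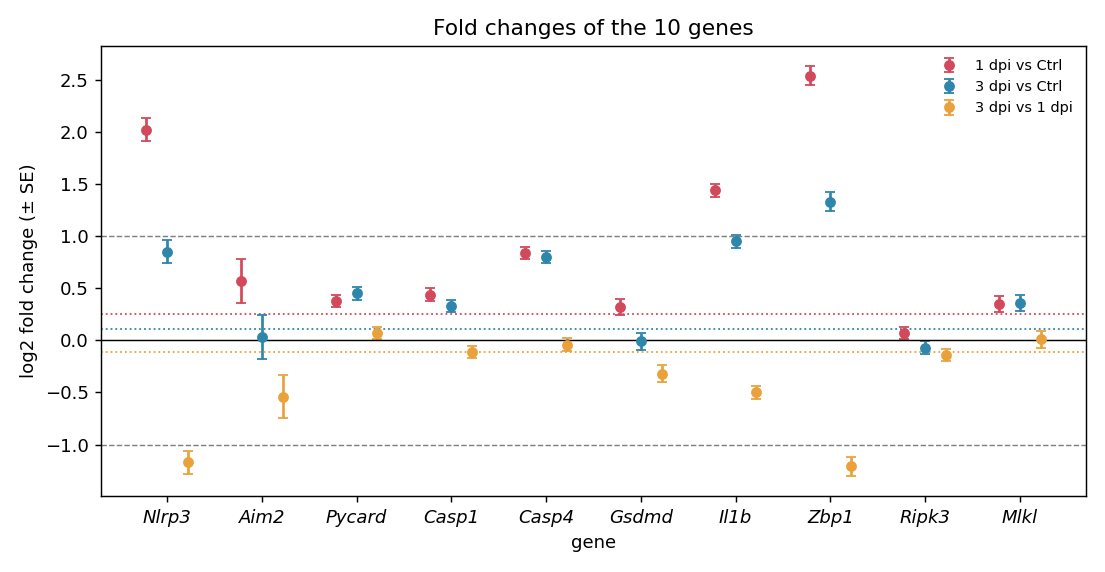
Log2 fold change of each of the 10 genes (y axis, point with bars of 1 SE) in the 3 comparisons, with dotted lines at the median of all genes tested and dashed lines at a 2-fold change. Nlrp3, Il1b and Zbp1 lie above the upper dashed line at 1 dpi, Zbp1 alone does so at 3 dpi, and Nlrp3 and Zbp1 lie below the lower line between the times.

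At 3 dpi against 1 dpi, the comparison tests whether the changes from Ctrl at the 2 times differ. Nlrp3 and Zbp1 fell between them, whereas none of the 10 rose. Zbp1 fell by 1.21 on the log2 scale (SE 0.09, adjusted p = 8.5e-05), to 0.433 of its level at 1 dpi. Nlrp3 fell by 1.17 (SE 0.11, adjusted p = 2.1e-04), to 0.445 of that level. Each was lower on 3 of 3 arrays than on every 1 dpi array. So 2 of 10 members were called lower, against 4.82% of all genes tested, and 0 of 10 were called higher in limma, against 3.97%. At an unadjusted p under 0.05 in limma, 0 members were higher (22.7% of all genes) and 5 lower (29.8%). With the test of the study's methods these numbers were 0 (23.8%) and 6 (33.7%). The 2 irradiated groups did not overlap for 7 of 10 members, beside 65.5% of all genes.

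Il1b had an estimate of -0.50 (SE 0.06, adjusted p = 4.2e-04), under the 2-fold minimum, and Gsdmd had -0.32 (SE 0.08, adjusted p = 0.010). Aim2 was at -0.54 (-1.03 to -0.05, adjusted p = 0.072) and Ripk3 at -0.14 (-0.29 to 0.01). For the caspases, the adaptor and Mlkl the estimates lay near 0, from -0.11 for Casp1 to 0.07 for Pycard, with Casp4 at -0.04 (-0.17 to 0.09) and Mlkl at 0.01 (-0.17 to 0.19). The median of the 10 members was -0.23 beside -0.11 over all genes tested, and 4 of 10 lay above the all-gene median. Relative to it Zbp1 was at -1.10 and Nlrp3 at -1.06. Estimates below 0 numbered 8 of 10, while 41.7% of all genes were above 0. After scaling to the array median, though, Casp1 was at 0.09, Casp4 at 0.15 and Ripk3 at 0.05, and after quantile normalization Mlkl was at -0.01. Pycard, on the other hand, turned to -0.44 with the mean over its probes (adjusted p = 5.8e-04) and to -0.91 with the deposited values (adjusted p = 7.3e-05), which use its other probe.

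With arrays scaled to their medians, Il1b was at -0.30 (adjusted p = 0.08) and Gsdmd at -0.13 (adjusted p = 0.52). Neither of these changes between the times then kept an adjusted p under 0.05. The decline of Nlrp3 was not called after scaling to the array median, where it was -0.98. That of Zbp1 was not called with the mean over its probes (-0.88) or with its other probe alone (-0.56). Il1b, in contrast, was called lower with its dimmest probe (-1.52), and with the deposited log2 values (-1.53), which do not use its brightest probe. Over all genes 1169 were called higher and 1419 lower, against 1620 and 954 after quantile normalization and 1743 and 851 after scaling to the array median. With slide as a block Nlrp3 was at -1.17 and Zbp1 at -1.21.

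For 5 of the 10 genes the arrays hold further probes under the same gene name, some of them for other transcript records, all of them well above background on 9 of 9 arrays. The other probe of Zbp1, A_66_P139683, lay at -1.58, -1.56 and -1.43 in Ctrl, at 0.12, 0.29 and 0.33 at 1 dpi, and at -0.59, -0.21 and -0.14 at 3 dpi. It kept the order Ctrl, 3 dpi, 1 dpi, with log2 fold changes of 1.77 and 1.21 against Ctrl. The second probe of Il1b, A_66_P114500, gave 1.19 at 1 dpi and 0.90 at 3 dpi. Its dimmest probe, A_55_P2720183, which carries a separate transcript name, lay at -0.80, -1.02 and -1.09 in Ctrl, at 0.88, 0.79 and 0.74 at 1 dpi, and at -1.01, -0.59 and -0.56 at 3 dpi. That probe was high at 1 dpi only, with 1.77 against Ctrl, and at 3 dpi it overlapped Ctrl, with 0.25.

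The probes of the remaining 3 genes divided. The second Gsdmd probe, A_66_P106903, gave 0.40 at 1 dpi and -0.07 at 3 dpi, close to the brighter one. The second Pycard probe, A_66_P121765 (chr7:135140025-135140084), which is assigned to a different transcript record from the brighter one, gave 0.80 at 1 dpi and -0.15 at 3 dpi, a difference between the times of -0.95 that the brighter probe, at 0.07, did not show. The second Aim2 probe, A_55_P2080130, gave -0.53 at 1 dpi (SE 0.09, adjusted p over probes = 0.0025) and -0.22 at 3 dpi, opposite in sign to the brighter probe. The direction of Aim2 is thus not settled by the arrays. Where each probe lies within its transcript was not analysed here, and the separate fit of every probe was added after the data had been seen.

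**Figure D3:**
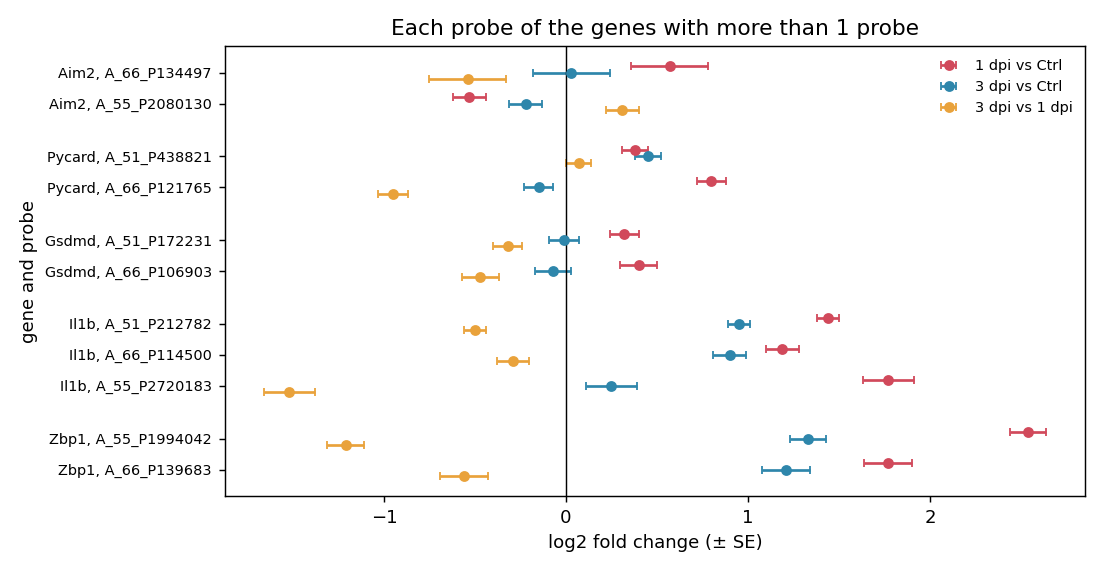
Log2 fold change (x axis, point with bars of 1 SE) in the 3 comparisons for every probe of the 5 genes with more than 1 probe. The Aim2 probes lie on opposite sides of 0 at 1 dpi, at 0.57 and -0.53, while both Zbp1 probes lie above 0 at 1 and 3 dpi.

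Promoter sequence is shown for the genes that rose or came nearest to it and for which the RefSeq table (GRCm38.p6) holds a window of 300 bases around the transcript start, namely Nlrp3 with 2 starts, Il1b, and Casp4. Of the 10 members 8 have a window and 2, Zbp1 and Gsdmd, have none, and the 8 have 10 windows between them. Both strands were searched for the element of interferon regulatory factors (AANNGAAA), the interferon-stimulated response element (GAAA, any 2 bases and GAAA again, which always contains the former) and the NF-kB consensus. Each sequence runs 5′ to 3′ along the gene's strand, with capitals for every match of the 3 motifs. The Nlrp3 windows lie at chr11:59541319-59541618 and chr11:59542436-59542735 (both + strand), that of Il1b at chr2:129371090-129371389 (- strand) and that of Casp4 at chr9:5308599-5308898 (+ strand).
Nlrp3 first start: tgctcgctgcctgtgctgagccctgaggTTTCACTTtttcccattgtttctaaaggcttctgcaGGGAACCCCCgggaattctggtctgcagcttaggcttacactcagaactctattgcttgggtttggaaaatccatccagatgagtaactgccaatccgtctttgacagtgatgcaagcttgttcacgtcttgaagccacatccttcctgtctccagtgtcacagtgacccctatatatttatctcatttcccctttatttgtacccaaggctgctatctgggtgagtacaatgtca
Nlrp3 second start: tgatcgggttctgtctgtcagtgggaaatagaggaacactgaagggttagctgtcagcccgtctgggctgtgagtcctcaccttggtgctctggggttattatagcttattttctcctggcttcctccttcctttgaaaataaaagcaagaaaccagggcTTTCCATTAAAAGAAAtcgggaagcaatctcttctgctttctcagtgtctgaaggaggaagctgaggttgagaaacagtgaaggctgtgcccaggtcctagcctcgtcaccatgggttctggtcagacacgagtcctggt
Il1b: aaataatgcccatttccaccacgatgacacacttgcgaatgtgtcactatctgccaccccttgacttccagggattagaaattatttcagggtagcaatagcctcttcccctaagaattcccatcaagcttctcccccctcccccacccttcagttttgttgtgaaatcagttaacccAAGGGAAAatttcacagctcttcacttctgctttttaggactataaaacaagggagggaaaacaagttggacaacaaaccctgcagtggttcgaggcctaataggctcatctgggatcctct
Casp4: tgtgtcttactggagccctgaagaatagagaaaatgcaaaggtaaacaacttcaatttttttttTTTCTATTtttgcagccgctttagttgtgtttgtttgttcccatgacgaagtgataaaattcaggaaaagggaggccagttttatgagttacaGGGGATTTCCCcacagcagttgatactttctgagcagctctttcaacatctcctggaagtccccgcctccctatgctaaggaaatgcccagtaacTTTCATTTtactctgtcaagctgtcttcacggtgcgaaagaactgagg

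In these windows the first Nlrp3 start had 1 match of the interferon regulatory factor element and 1 of the NF-kB consensus, and the second start had 2 of the former side by side. Il1b had 1 match of the interferon regulatory factor element. Casp4 had 2 such matches and 3 of the NF-kB consensus, which overlap in a single stretch; its other start lies a few bases away and holds the same matches. Among all members 6 of 10 windows held the interferon regulatory factor element, against 23.9% of 32851 promoter windows of the same length. The NF-kB consensus was in 3 of 10, against 4.51%. Since Nlrp3 and Casp4 have 2 windows each, and those of Casp4 overlap, these are 4 and 2 of the 8 genes with a window, against 26.7% and 5.14% of 27025 genes. The interferon-stimulated response element was in 0 of 10 (3.44% of all windows). A match is a description of the letters and not a bound site, and its absence says only that those letters are not in the window.

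Other genes of the same pathways, listed by their known roles, stand beside the members. Together they are 79 genes. At 1 dpi limma called 12 of them higher (15.2%, beside 12.3% of all genes) and 1 lower (1.27%, beside 2.87%). At 3 dpi it called 6 higher (7.59%, beside 6.98%) and 1 lower (1.27%, beside 1.82%), and between the times 2 higher (2.53%, beside 3.97%) and 2 lower (2.53%, beside 4.82%). These shares lie near those of all genes. Casp8 is on 2 of these lists and Elane also on that of neutrophil markers. Scaling to the array median gave 7 calls at 1 dpi in place of 13, while the 4 between the times became 8 with the deposited log2 values and 8 without 3 dpi replicate 1. Their median log2 fold changes were 0.07, 0.05 and 0.05, where the members had 0.50, 0.40 and -0.23. Among 16 other inflammasome sensors and cofactors, 2 were called higher and 0 lower at both times. P2rx7, the ATP-gated channel that triggers potassium loss and so acts upstream of Nlrp3, rose by 1.11 (SE 0.06, adjusted p = 8.5e-06) at 1 dpi and by 1.43 (SE 0.06, adjusted p = 2.3e-06) at 3 dpi. Nlrp1b, a sensor of pathogen proteases, rose by 1.03 (SE 0.11) and 1.99 (SE 0.11). Neither was called at 1 dpi after scaling to the array median (P2rx7 0.79, Nlrp1b 0.71), and Nlrp1b also lost that call after quantile normalization (0.70), with the normexp background (0.94), with the deposited values (0.70), and without Ctrl replicate 3 (0.94) or 1 dpi replicate 3 (1.00). At 3 dpi Nlrp1b was at 1.32 with the mean over probes. The list's median was 0.06 at 1 dpi and 0.02 at 3 dpi, and between the times 0 of 16 were called, with 6 higher and 3 lower at an unadjusted p under 0.05 in limma.

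Of 12 other pyroptosis effectors and inhibitors, other gasdermins and caspases among them, limma called 0 in every comparison. At an unadjusted p under 0.05 there were 5 higher and 3 lower at 1 dpi, 5 and 1 at 3 dpi, and 3 and 1 between the times, and the list's medians were 0.28, 0.48 and 0.15. In the 17 genes of interleukin 1 family signalling, 4 were called higher and 1 lower at 1 dpi, with a median of -0.01. Over all genes tested these shares were 12.3% and 2.87%. Il1r2, the decoy receptor that binds interleukin 1β without signalling, rose by 2.24 (SE 0.20), and Il1rn, the receptor antagonist, by 1.11 (SE 0.08). Il18bp, which neutralizes interleukin 18, rose by 1.56 (SE 0.07), and Irak2, a kinase of the receptor complex, by 1.11 (SE 0.13). Il1rn and Irak2 were not called after scaling to the array median (0.80 each) or with the mean over probes (0.98 each).

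At 3 dpi 2 of these 17 were called higher and 1 lower (median 0.15), and 1 was called higher and 0 lower between the times (median 0.09). Over all genes the shares were 6.98% and 1.82% at 3 dpi, and 3.97% and 4.82% between the times. Il18, the other cytokine that caspase-1 matures, was higher by 1.42 (SE 0.07) at 3 dpi against Ctrl and by 1.65 (SE 0.07) against 1 dpi. Il1r2 was also called higher at 3 dpi, by 1.25 (SE 0.20), but not within slide 2, without Ctrl replicate 1, where it was at 0.99. Il33, the gene called lower at 1 dpi, is named here after its values were seen. Its level was above background on 0 of 3 arrays at 1 dpi. Its Ctrl mean, -5.68, lay close to -5.76, the mean lowest level well above background at 1 dpi. The bound this gives, 1.06-fold, is near no change. Il33 was also the gene called lower at 3 dpi, where 1 of 3 arrays was above background, so no fold is given. The call at 1 dpi was lost without Ctrl replicate 3 (adjusted p = 0.054), 1 dpi replicate 1 (adjusted p = 0.055) or 1 dpi replicate 3 (adjusted p = 0.064), and that at 3 dpi without 3 dpi replicate 2 (adjusted p = 0.050) or 3 (adjusted p = 0.051). With the normexp background neither call was made, and the estimates were 0.40 at 1 dpi, opposite in sign, and -0.49 at 3 dpi. The study's own test with adjustment did not call it at 3 dpi either (adjusted p = 0.10). The direction of Il33 is thus not settled by the arrays.

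Upstream of Ripk3 and Mlkl, 26 genes of death receptor signalling and its brakes were tested. At 1 dpi 3 were called higher and 0 lower (median 0.06): Tnf, the death receptor ligand, by 1.40 (SE 0.06), Tlr3, the receptor for double-stranded RNA, by 1.29 (SE 0.19), and Tnfaip3, the ubiquitin-editing brake A20, by 1.22 (SE 0.06). At 3 dpi 2 were called higher and 0 lower (median 0.04), namely Fasl, the ligand of the receptor Fas, by 2.12 (SE 0.12), and Tlr3 by 1.05 (SE 0.19). The calls of Tlr3 were lost after quantile normalization (0.84 at 1 dpi, 0.81 at 3 dpi) and scaling to the array median (0.98 and 0.93). That at 3 dpi was also lost with the normexp background (0.46), within slide 2, without Ctrl replicate 1 (0.94), and without Ctrl replicate 2 (0.99) or 3 dpi replicate 1 (0.96). The Tlr3 estimate at 3 dpi was larger, in contrast, with the mean over its probes (2.10) and with the deposited values (2.83). Tnfaip3 was not called after quantile normalization (0.95), scaling to the array median (0.90) or with the deposited values (0.95). Between the times Fasl alone was called, higher by 1.31 (SE 0.12; median of the list 0.02), though not with the normexp background (0.51), which also put it at 1.35 at 3 dpi.

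Among the transcription factors known to act on these genes, Irf1, a factor of interferon responses, rose by 1.48 (SE 0.07, adjusted p = 3.5e-06) at 1 dpi and fell by 1.59 (SE 0.07, adjusted p = 8.7e-06) between the times. Stat2, which carries interferon signals to the nucleus, rose by 1.04 (SE 0.07, adjusted p = 2.9e-05) at 1 dpi, though it was not called after scaling to the array median (0.72) or with the normexp background (0.99). The list of 9 factors did not rise as a whole. Its median at 1 dpi was 0.09, beside 0.25 over all genes tested. At an unadjusted p under 0.05 in limma, 4 factors were higher and 3 lower at 1 dpi. The medians were -0.06 at 3 dpi and -0.16 between the times.

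**Figure D4:**
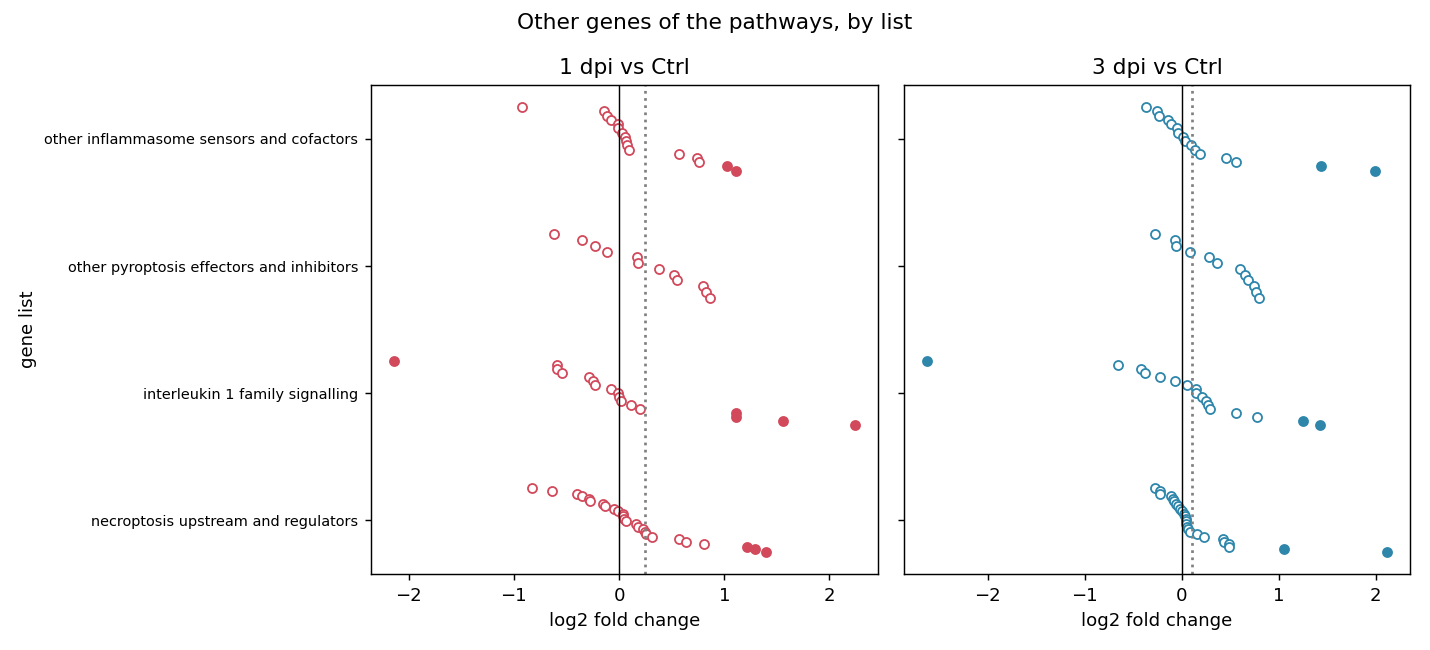
Log2 fold change (x axis) of each gene on 4 pathway lists at 1 dpi and 3 dpi against Ctrl, with filled points for genes called and a dotted line at the median of all genes tested. Most points lie near 0, with 2 to 4 filled points to the right in each list that has any, and Il33 on the left.

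Several members, Il1b and Nlrp3 among them, are well known in myeloid cells, so markers of other cells are given beside them. In bulk samples fewer cells of a type and less RNA per cell cannot be told apart. All 15 macrophage markers were well above background on 9 of 9 arrays, with Csf1r the brightest. Their summed level was 57.4 to 66.1 in Ctrl, 84.1 to 89.2 at 1 dpi and 155.5 to 161.1 at 3 dpi, with 6 called higher and 1 (Cd163) lower at 1 dpi, and 12 and 0 at 3 dpi. All 10 monocyte markers were present, Lyz2 the brightest, with sums of 319.2 to 332.7, 498.1 to 540.7 and 352.1 to 390.8; Vcan and Cd14 were called higher at 1 dpi, and Ccr2, Fn1, Vcan and Cd14 at 3 dpi. All 15 neutrophil markers were present, Mpo the brightest, with sums of 1345.2 to 1436.5, 2216.1 to 2402.2 and 1361.5 to 1503.4. Of these S100a8, S100a9 and Mmp9 were called higher at 1 dpi, and 0 at 3 dpi in limma, where 3 were higher and 2 lower at an unadjusted p under 0.05. The neutrophil sum was thus highest at 1 dpi, as were Nlrp3, Il1b and Zbp1, whereas the macrophage sum was highest at 3 dpi. For the monocyte list sum and median differ: the sum was highest at 1 dpi, but the median log2 fold change against Ctrl was 0.31 at 1 dpi and 0.91 at 3 dpi, and Ccr2, Fn1 and Ly86 were called higher, with 0 called lower in limma (3 at an unadjusted p under 0.05), between the times.

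The lists of other lineages moved as well. The sum of 11 B cell markers, Cd79b the brightest, went from 29.9 to 31.8 in Ctrl to 5.8 to 6.0 at 1 dpi and 5.7 to 5.8 at 3 dpi. Of these markers 10 were called lower at each time, Rag1 among them. Rag1 was above background on 3 of 3 Ctrl arrays and on 0 of 3 arrays at each later time. For Rag1 no fold can be given at 1 dpi, and at 3 dpi only that it was at least 1.8-fold lower. For 10 erythroid markers, Hba-a1 the brightest, it was 85.6 to 104.7, 197.1 to 245.5 and 30.7 to 33.5, with 2 called higher (Hba-a1 and Hbb-b1) and 7 lower at 1 dpi and 9 lower at 3 dpi. The 10 stromal markers, Cxcl12 the brightest, summed to 9.9 to 10.4, 44.0 to 51.1 and 84.8 to 93.0, with 7 and 6 called higher. The 8 endothelial markers, Stab2 the brightest, summed to 2.7 to 2.9, 4.5 to 4.9 and 7.5 to 9.0. Called higher were 3 (Cdh5, Kdr, Flt4) at 1 dpi and 5 (the same with Emcn and Stab2) at 3 dpi. Flt4 was well above background on 7 of 9 arrays and lay lowest in Ctrl, at -6.84, -6.45 and -6.58, so no fold is given for it. The 11 T and NK cell markers, Gzma the brightest, summed to 3.2 to 3.9, 4.9 to 5.7 and 6.6 to 7.5, with 3 higher (Ncr1, Gzma, Prf1) and 1 lower (Cd2) at 1 dpi and 5 higher at 3 dpi (these 3 with Cd3g and Klrb1c). Of 9 dendritic cell markers 8 were tested, Siglech the brightest, and Xcr1 was above background on 0 of 9 arrays. They summed to 17.6 to 33.0, 46.6 to 52.0 and 25.0 to 28.8, with Siglech called higher and Flt3 and Cd209a lower at 1 dpi, and Flt3 lower at 3 dpi. Siglech lay at 3.67 on Ctrl replicate 1 but at 4.80 and 4.84 on the other Ctrl arrays, and its probes gave from -1.61 to 1.08 at 1 dpi, so its direction is not settled. The same holds at 1 dpi for Flt3, whose probes gave from -1.65 to 0.56, while at 3 dpi they gave from -2.14 to -0.08. It also holds at 1 dpi for Ms4a1, counted among the B cell markers called lower, whose probes gave from -4.13 to 1.46. The probes of Pax5, the B cell marker not called, gave from -5.66 to 0.56 at 1 dpi. The marker genes called were named after their values were seen. The part of these other cells in the members' results was not tested.

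**Figure D5:**
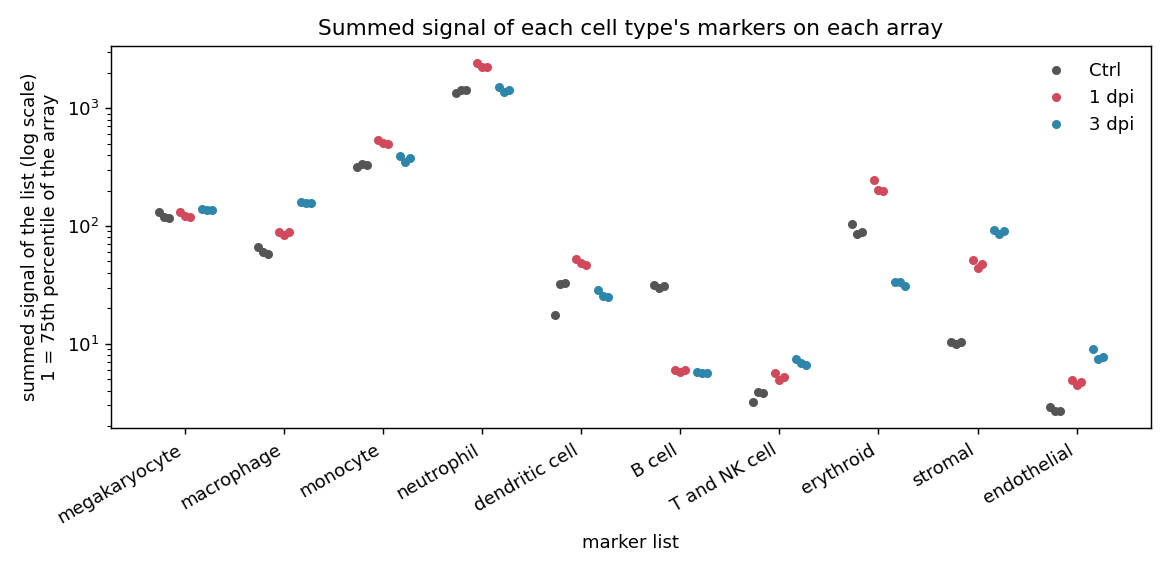
Summed level of each of the 10 marker lists (y axis, log scale, in multiples of the array's 75th percentile), with a point for each of the 9 arrays. The megakaryocyte sum stays between 117.0 and 138.6. The neutrophil, monocyte, dendritic cell and erythroid sums are highest at 1 dpi, and the macrophage and stromal sums are highest at 3 dpi.

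The genes whose levels were most like those of the 3 called members over the 9 arrays were also sought, as a description only, since the arrays fall into 3 groups and any gene with the same group means scores high. Nearest to Nlrp3 were Dgat1 (Pearson r = 0.998), the transcript ENSMUST00000174138 (0.996) and Platr17 (0.995). Nearest to Il1b were Cdkn1a (0.999), Asprv1 (0.998) and 9030617O03Rik (0.998). Nearest to Zbp1 were Commd3 (0.999), Slc15a3 (0.999) and Themis2 (0.998). Of these, Cdkn1a, the cell cycle inhibitor p21, lay at 0.84, 0.58 and 0.56 in Ctrl, at 4.56, 4.51 and 4.51 at 1 dpi, and at 3.32, 3.06 and 3.03 at 3 dpi. It was highest at 1 dpi and intermediate at 3 dpi, the order of Il1b, with no overlap between groups.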

How the data were processed

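RNA from CD41- and CD42d-selected mMKs of male mice was read on 9 Agilent 1-colour arrays (design 074809), 3 each for Ctrl, 1 dpi and 3 dpi after 5 Gy. The deposited array files hold processed signal intensity, which the authors obtained with Agilent Feature Extraction 10.7.1.1; it is background-subtracted and not scaled between arrays. The deposited table holds normalized log2 values for 27275 gene names, of which 21690 could be used, and served as an alternative. The study's methods describe an Affymetrix platform, whereas the files are Agilent.

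From the intensity, control spots (3671) and outlier spots were left out, spots of a probe were averaged, and log2 values were reduced by each array's 75th percentile. A probe was kept if every array of some group showed it well above background (44300 of 56605 probes), and the brightest stood for its gene, giving 29410 of 37316 gene names. A limma model (limma 3.58.1 and the data.table package, version 1.17.8, in R 4.3.3) with 3 group means was fitted to all 9 arrays. Two-sided p was adjusted by Benjamini-Hochberg over all genes tested, and a call needs an adjusted p under 0.05 and a change of at least 2-fold. With 3 arrays against 3, the smallest two-sided p of an exact permutation test is 0.1, so none was used. Figures were drawn with Python 3.11.15 and matplotlib 3.10.9.

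The members and the gene lists were chosen with earlier results of these data known. Named genes are all members with all probes; in each pathway list and comparison up to 4 called genes with the largest change, ranked among those measurable on every array compared; the brightest gene of each marker list and those above background on 0 of 9 arrays; and the 3 genes most like each called member by Pearson correlation. Alternatives were quantile normalization, scaling to the array median, a normexp background with an offset of 50, no filter on dim probes, the mean over probes, the deposited log2 values, fits of 2 groups only, replicate number or slide as a block, the two-sided unpaired t-test that the methods name for the study in general, with and without adjustment, no minimum fold change, and leaving out each array. Probe positions are from the array files (mm9), a different build from the promoter windows (RefSeq, GRCm38.p6).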

Additional observations from a re-analysis of the deposited data

Results flagged for a closer look

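For Nlrp3 and Zbp1 the change from Ctrl at 3 dpi differed from that at 1 dpi. Because both changes share the Ctrl arrays, the test of their difference is the comparison of 3 dpi with 1 dpi. In limma the log2 difference was -1.17 for Nlrp3 (SE 0.11, adjusted p = 2.1e-04) and -1.21 for Zbp1 (SE 0.09, adjusted p = 8.5e-05). Markers of other cells also moved between the groups, and their part in these differences was not tested. With arrays scaled to their medians, Nlrp3 was at -0.98 (adjusted p = 8.7e-04), just short of a 2-fold change. Zbp1 was at -0.88 with the mean over its probes (adjusted p = 7.8e-05) and at -0.56 with its other probe (adjusted p = 0.0087), also short of 2-fold.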

How the results depend on the processing

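All values rest on 3 arrays a group, with 69.1% to 81.8% of probes well above background on an array. How precision depends on brightness was not tested. The counts of members called, 3, 1 and 2 at 1 dpi, 3 dpi and 3 dpi against 1 dpi, were the same with each array left out in turn (3 to 3, 1 to 1 and 2 to 2). Of the single-member values under alternatives, other probes aside, 520 kept their direction and their side of the threshold, 17 changed sign, 2 lost the call and 1 gained it. With replicate number as a block, in a paired design, members called were 3, 1 and 2, genes 4273, 2498 and 2494 and pathway genes 13, 7 and 4. The deposited labels do not pair the arrays, and arrays of the same number correlated at -0.11 to 0.13 beside -0.15 to 0.10 for other pairs.

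Genes called at 1 dpi, 3 dpi and between the times, 4468, 2587 and 2588, became 2793, 1282 and 1604 with the normexp background. They became 15674, 10523 and 16909 with the methods' test at its own unadjusted threshold, with members at 9, 7 and 6 and pathway genes at 46, 35 and 49. Adjusted, that test called 3360, 2207 and 2524 genes. With no minimum fold change they were 16443, 9416 and 13125, with members at 8, 7 and 4 and pathway genes at 46, 28 and 40. Between the times 4489 genes were called with no filter on dim probes. Pathway genes called were 7 at 1 dpi after scaling to the array median and 8 between the times with the deposited table. Leaving out each array gave 3561 to 5367, 2347 to 2768 and 2264 to 2812 genes, and 11 to 14, 5 to 7 and 4 to 8 pathway genes, the 8 without 3 dpi replicate 1.

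Between the times 1 member was called after scaling to the array median (Nlrp3, at -0.98, lost its call) and 1 with the mean over probes (Zbp1, at -0.88, lost its call, as it did with its other probe, at -0.56). Il1b gained a call with the deposited table (-1.53) and its dimmest probe (-1.52). Scaling to the array median turned Ripk3 to -0.24 at 1 dpi, Aim2 to -0.10 at 3 dpi, and Casp1 to 0.09, Casp4 to 0.15 and Ripk3 to 0.05 between the times. Quantile normalization and the deposited table each put Mlkl at -0.01 between the times, and normexp put Casp4 at 0.01. At 3 dpi Aim2 was at -0.09 with the mean over probes, and at -0.25 to 0.17 with each array left out. Gsdmd at 3 dpi was at 0.05 with slide as a block and at -0.06 to 0.05 with each array left out. Pycard was at -0.15 at 3 dpi with the deposited table and with its other probe, and between the times at -0.44 with the mean over probes, -0.91 with the deposited table and -0.95 with its other probe. The other Aim2 probe gave -0.53, -0.22 and 0.31. The fits of other probes were chosen after seeing the data. The cause was not tested for any of these.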
